A study of Mus musculus with 4 samples.

Results

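Ccr7-positive Cxcr3-negative CD8 T cells of the brain border tissues are described here, 266 cells of the 4801 called in 4 single-cell libraries. A cell was taken when it had between 200 and 7000 genes, at most 5% mitochondrial UMIs (unique molecular identifiers, each standing for 1 captured RNA molecule), a UMI of the T-cell receptor partners Cd3d, Cd3e or Cd3g, a UMI of Cd8a or Cd8b1, none of Cd4, at least 1 of Ccr7 and none of Cxcr3. The cells were thus chosen by their UMIs of Ccr7, Cxcr3, Cd4, Cd8 and Cd3 genes, whose levels are not results. The T cells had been sorted by flow cytometry from freshly isolated meninges and choroid plexus of female C57BL/6 mice, either young (10 weeks old) or aged (18 months old), and sequenced with the 10x 5′ gene expression kit. Each age and tissue was 1 library pooled from 5 mice, which left no replicates to test, and no p-values were computed. Intervals are exact 95% intervals (Clopper-Pearson for shares of cells, Poisson for UMIs) that cover counting error only, not the variation between mice. Where no cell had a UMI, the limit given in place of an interval is 3 cells of the total, which limits the share of cells with a UMI and not of cells that transcribe the gene. Where values of 4 libraries are listed, the young meninges come first, then the young choroid plexus, the aged meninges and last the aged choroid plexus.

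CCR7 is the chemokine receptor that brings naïve and central memory T cells into lymph nodes along CCL21 and CCL19, and CXCR3 is the receptor for interferon-induced chemokines that memory and effector CD8 T cells use to enter inflamed tissue. Naïve CD8 T cells are kept in a resting state by the transcription factors LEF1 and TCF1 (encoded by Tcf7), SATB1 and KLF2, and they carry little of the chemokine CCL5, which memory CD8 T cells transcribe in large amounts. A CD8 T cell with CCR7 but without CXCR3 may be naïve or an early memory cell, so the label naïve-like was checked against genes that did not choose the cells.

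Lef1, a transcription factor of naïve T cells, and Igfbp4, which encodes a binding protein for insulin-like growth factors and is transcribed by naïve T cells, were the markers outside the gates. In the GENCODE annotation of GRCm38, Lef1 lies on the plus strand at chr3:131110471-131224356 and Igfbp4 on the plus strand at chr11:99041244-99054392. Ccr7 lies on the minus strand of the same chromosome at chr11:99144196-99155077, 89.8 kb beyond the end of Igfbp4, with Tns4 between them. S100a6, which encodes a calcium-binding protein abundant in memory T cells and differed in summed level between young and aged cells, lies on the plus strand at chr3:90612882-90624181. The 250 bases before the start of these 3 genes are shown. Ccl5, on which much of the description below rests, is not among them because no such stretch was at hand for it. They were taken from RefSeq on GRCm38.p6, plus strand, at chr3:131110047-131110296 for Lef1 (the first of its 4 listed starts), chr11:99040994-99041243 for Igfbp4 and chr3:90612644-90612893 for S100a6. Capitals mark the letters CACCC or GGGTG, the core of sites bound by KLF factors on either strand, and TGTGGT or ACCACA, the core of sites bound by RUNX factors.
Lef1: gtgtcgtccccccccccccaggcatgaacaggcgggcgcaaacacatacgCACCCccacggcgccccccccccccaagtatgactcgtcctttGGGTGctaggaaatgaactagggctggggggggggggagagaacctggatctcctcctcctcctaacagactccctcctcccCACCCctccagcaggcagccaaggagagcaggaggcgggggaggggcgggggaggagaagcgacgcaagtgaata
Igfbp4: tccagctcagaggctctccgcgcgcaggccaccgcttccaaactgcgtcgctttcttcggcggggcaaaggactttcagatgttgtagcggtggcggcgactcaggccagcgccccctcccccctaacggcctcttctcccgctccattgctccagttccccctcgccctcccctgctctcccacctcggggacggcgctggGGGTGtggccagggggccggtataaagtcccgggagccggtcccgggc
S100a6: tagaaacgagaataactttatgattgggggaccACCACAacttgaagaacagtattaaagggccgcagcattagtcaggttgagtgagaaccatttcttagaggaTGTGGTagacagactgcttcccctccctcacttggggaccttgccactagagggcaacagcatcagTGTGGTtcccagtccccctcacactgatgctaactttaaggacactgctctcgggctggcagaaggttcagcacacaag
The Lef1 stretch held 3 KLF matches and the Igfbp4 stretch 1, while the S100a6 stretch held no KLF match and 3 RUNX matches. Of the 32851 stretches of this length in the RefSeq table, 52.0% held a KLF match and 14.0% a RUNX match. The matches are a description of the letters and do not show binding.

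The young libraries held most of these cells. In the young meninges 150 of 260 CD8 T cells met the rule, 57.7% (51.4 to 63.8%), and in the young choroid plexus 72 of 167, 43.1% (35.5 to 51.0%). In the aged meninges the count was 16 of 281, 5.69% (3.29 to 9.08%), and in the aged choroid plexus 28 of 476, 5.88% (3.94 to 8.39%). The intervals of the young and aged libraries were far apart in both tissues, whereas those of the 2 aged libraries overlapped almost fully. Since a deeper cell shows more genes, each cell was also thinned to 1000 UMIs drawn at random before the rule was applied. The share was then 31.2% (24.7 to 38.3%), 17.9% (11.5 to 26.1%), 2.33% (0.759 to 5.34%) and 3.23% (1.68 to 5.57%), again lower in both aged libraries. Among CD4 T cells the cells with Ccr7 and without Cxcr3 took shares of the same order, 55.8, 59.0, 6.91 and 6.93%.

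**Figure D1:**
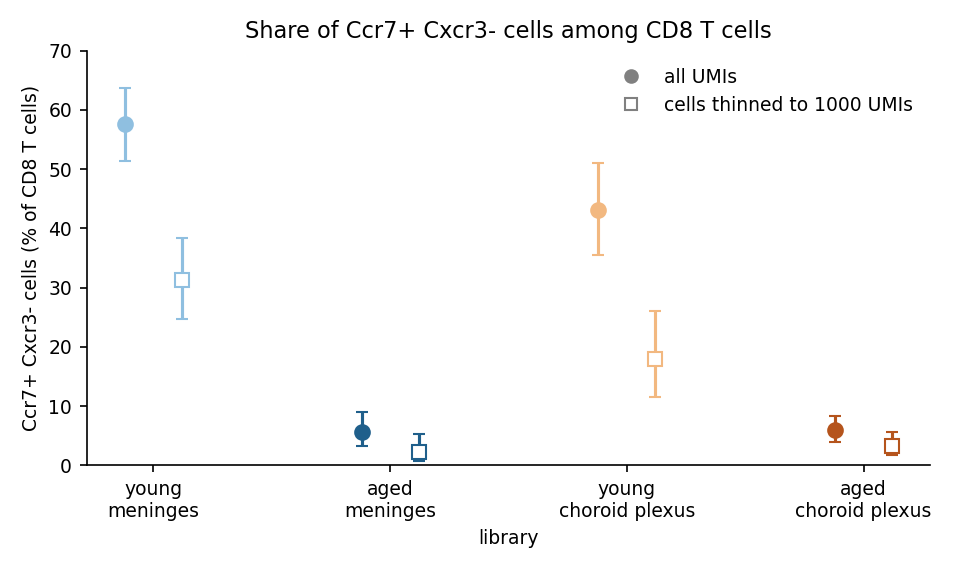
Share of CD8 T cells that were Ccr7-positive and Cxcr3-negative (vertical axis, percent) in each of the 4 libraries, at full depth and after thinning each cell to 1000 UMIs, with exact 95% intervals as bars. Both young libraries, at 57.7 and 43.1%, stand above both aged libraries, at 5.69 and 5.88%.

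The 266 cells were of good depth at both ages. Their median UMI count was 3774.5, 3481.5, 4562 and 4465, against 3482, 3458, 2734 and 3057.5 in all other CD8 T cells of the same library, so the aged cells taken by the rule were the deeper ones of their libraries. Summed over cells they held 598244, 291711, 69222 and 125894 UMIs, and the aged values below rest on this lower depth. Ribosomal protein genes took 42.5, 41.9, 47.0 and 41.1% of their UMIs, a larger part than the 35.6, 36.3, 33.0 and 33.8% in the other CD8 T cells. At 1000 UMIs they showed a median of 478, 480.5, 467.5 and 475 genes per cell, fewer than the 523, 526, 551 and 541 of the other CD8 T cells in every library. The doublet caller Scrublet marked 4, 3, 0 and 0 of them, and these cells were kept. Pairs of libraries shared between 0 and 3 cell barcodes, and 1 of the shared barcodes belonged to a cell taken here.

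The threshold of 1 Ccr7 UMI was close to the limit of detection. Of the cells, 108 had exactly 1 Ccr7 UMI and 158 had more, and in the aged libraries 25 had 1 and 19 had more. Just inside the threshold, Lef1 was found in 81.2, 71.4, 37.5 and 29.4% of the cells with 1 Ccr7 UMI, beside 78.4, 81.1, 50 and 72.7% of those with at least 2. Just outside it, CD8 T cells with neither Ccr7 nor Cxcr3 carried Lef1 in 64.1, 50.8, 15.0 and 14.6%. In the aged choroid plexus these were 5 of 17 (10.3 to 56.0%) and 8 of 11 cells (39.0 to 94.0%), with overlapping intervals. A difference in Lef1 between cells with 1 and with more Ccr7 UMIs was thus not resolved at this depth. Memory genes there lay mostly in the cells with 1. Of 13 aged choroid plexus cells with at least 10 Ccl5 UMIs, 2 had at least 2 Ccr7 UMIs, and most S100a6 UMIs lay in cells with 1. In the aged meninges 4 of 9 cells with at least 10 Ccl5 UMIs had at least 2 Ccr7 UMIs. Free RNA can give a Ccr7 UMI to a cell that does not transcribe the gene, so the share was also taken in CD8 T cells of memory classes. The class first set for this, CD8 T cells with a UMI of the tissue memory receptor Cxcr6, had a Ccr7 UMI in 56.7, 30.6, 5.88 and 6.5%, at median depths of 3968, 4046, 2826 and 3163 UMIs. Because so many of these young cells had Ccr7, cells with a UMI of Gzmk, the granzyme of tissue memory cells, were added after the data were seen. A Ccr7 UMI was found in 7 of 33, 4 of 26, 4 of 168 and 13 of 249 such cells, or 21.2, 15.4, 2.38 (0.652 to 5.98) and 5.22% (2.81 to 8.76%), at median depths of 3733, 4124, 2797 and 3128 UMIs. Over all CD8 T cells, whatever their Cxcr3, the share with a Ccr7 UMI was 65.0, 47.3, 8.90 and 9.45%, above the Cxcr6-positive and the Gzmk-positive cells in every library, though by little over the Cxcr6-positive cells of the aged libraries. The share depended on Ccl5, another gene outside the gates. It was 76.7, 67.4, 35.0 and 40.6% in CD8 T cells without a Ccl5 UMI, and 37.3, 19.2, 7.05 (4.16 to 11.1) and 7.49% (5.03 to 10.6%) in those with at least 10. Cells rich in Ccl5 and cells with Gzmk overlap, since they made up 241 and 168 of 281 aged meningeal and 374 and 249 of 476 aged choroid plexus CD8 T cells. How many of the aged cells carried their Ccr7 UMI from free RNA was not tested.

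Lef1 and Igfbp4 fitted the label in the young libraries and only in part in the aged ones. Lef1 was detected in 79.3% (72.0 to 85.5%) and 76.4% (64.9 to 85.6%) of the young cells and in 43.8% (19.8 to 70.1%) and 46.4% (27.5 to 66.1%) of the aged cells. After thinning the shares of Lef1 were 36.0, 29.2, 18.8 and 21.4%, with overlapping intervals between the ages. Igfbp4 was detected in 54.7, 51.4, 31.2 and 42.9% of the cells. By contrast the CD8 T cells with Cxcr3 and without Ccr7 had Lef1 in 33.3, 14.8, 18.7 and 12% and Igfbp4 in 0, 7.41, 0 and 0.524%, where a count of 0 allows up to 11.1% of 27 and 2.44% of 123 cells. With at least 1 UMI of Lef1, Igfbp4, Dapl1 or Satb1 taken as a naïve sign, 96.7, 93.1, 81.2 and 60.7% of the cells showed it. With at least 1 UMI of Ccl5, Gzmk, Cd44, S100a4, S100a6 or Itgb1 taken as a memory sign, 25.3, 34.7, 68.8 and 71.4% showed it. Nkg7 and Id2 had first been part of the memory set and were left out after the data were seen, because with them 81.3, 72.2, 93.8 and 89.3% of the cells carried a memory gene. With the 6 genes kept, a naïve sign without a memory sign was present in 72.7% (109 of 150), 61.1% (44 of 72), 31.2% (5 of 16) and 25% (7 of 28). With the 8 genes first set it was present in only 17.3, 26.4, 6.25 and 7.14%, and 79.3, 66.7, 75 and 53.6% of the cells had both signs. A memory sign without a naïve sign was present in 1.33, 2.78, 18.8 and 35.7% with 6 genes and in 2, 5.56, 18.8 and 35.7% with 8. The share of cells with a naïve sign alone thus depended on the choice of memory genes. In percentage points, though not as a ratio, the change was largest in the young libraries. The cells are called by their rule and not naïve-like in what follows.

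Aged and young cells were compared within each tissue on summed UMIs scaled to counts per 1000000 UMIs (CPM), with 50 CPM added before the log2 ratio because the aged cells were few. Every value given as a fold or a plain ratio, by contrast, is the ratio of CPM with nothing added, so it is larger than the log2 ratio implies where levels are low. The chemokine Ccl5 was 12.3-fold higher in the aged meninges and 9.41-fold higher in the aged choroid plexus, and S100a6 was 26.5-fold and 5.36-fold higher (log2 ratios of 3.19 and 2.25). The choroid plexus value of S100a6 rested mostly on aged cells with exactly 1 Ccr7 UMI. With at least 2 required, S100a6 fell short of the rule below in that tissue. Ly6a (Sca-1, an interferon-inducible surface protein), Ctla2a (an inhibitor of cathepsin L-like proteases) and Lgals1 (galectin-1) were also higher in both tissues. Smc4 (a condensin subunit), Rgcc (a regulator of the cell cycle), Lgals9 (galectin-9), Crtc3 (a coactivator of CREB), Tspan32 (a tetraspanin) and Fam169b were lower in both. Most of these 6 genes did not meet the rule below in thinned cells or with 100 CPM added. The same held with at least 2 Ccr7 UMIs required and without the cells that had a Ccl5 or Gzmk UMI. A gene counted as higher or lower when its log2 ratio, with the 50 CPM added, was 1 or more in size and the library with more of it held 10 UMIs or more. In the meninges 15 of 5389 genes were higher in the aged cells (0.278%) and 120 were lower (2.23%). In the choroid plexus 22 of 3268 were higher (0.673%) and 36 were lower (1.1%). The same direction in both tissues, with at least 20 UMIs over both at the higher age, was met by 5 higher (0.113%) and 6 lower genes (0.136%) of 4407. The lower counts of the aged meninges are weak, since 57 of the 120 lower genes had no UMI in its 16 cells and the intervals of only 30 were apart from the young ones. For the higher genes no such count is given, since the UMI minimum in the shallow aged libraries largely fixes it. The split of calls depended on the scaling. With ribosomal, mitochondrial and receptor genes left out of the total, 30 genes were higher and 450 lower in the meninges. In the choroid plexus 42 were higher and 134 lower, and in both tissues 8 were higher and 23 lower. The higher genes went from 11.1 to 6.25%, from 37.9 to 23.9% and from 45.5 to 25.8% of the calls. The counts of higher genes rose as well, and these percentages fell because the counts of lower genes rose more.

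Ccl5 (chr11:83525778-83530518, minus strand) summed to 347, 216, 494 and 877 UMIs. Its level was 580.0 CPM (521 to 644) in the young meninges and 740.5 CPM (645 to 846) in the young choroid plexus. In the aged cells it was 7136 CPM (6521 to 7794) in the meninges and 6966 CPM (6513 to 7443) in the choroid plexus. The aged to young ratio was 12.3 (10.7 to 14.2) in the meninges and 9.41 (8.10 to 11.0) in the choroid plexus. A Ccl5 UMI was present in 13.3% of the cells (20 of 150), 22.2% (16 of 72), 62.5% (10 of 16) and 57.1% (16 of 28), and after thinning in 8.67, 13.9, 56.2 and 46.4%. Both the level and the share of cells were thus higher in the aged libraries. Ccr7-positive Cxcr3-negative CD4 T cells carried far less, 56.0, 55.8, 1188 and 1201 CPM, so their aged cells also stood above their young ones.

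S100a6 was at 23.4 CPM (12.8 to 39.3) and 305 CPM (245 to 375) in the young cells. It was at 621 CPM (450 to 837) and 1636 CPM (1420 to 1876) in the aged cells. The log2 ratio was 3.19 in meninges and 2.25 in choroid plexus, and the share of cells with a UMI was 3.33, 11.1, 43.8 and 60.7%, so that 9 of 16 and 11 of 28 aged cells had none. Each aged library was above both young libraries, and each choroid plexus library above the meninges library of its age. Ly6a was at 43.5, 109.7, 188 and 508 CPM, Ctla2a at 48.5, 48.0, 173 and 294 CPM, and Lgals1 at 196, 195, 520.1 and 786 CPM. The smallest aged to young ratio of these genes was 2.66 (1.78 to 3.89), for Lgals1 in the meninges. The intervals of the ratios lay above 1 in both tissues, which follows largely from the size and UMI minimum that chose the genes. Most UMIs of these genes in the aged meninges lay in the cells rich in memory genes. Without the cells that had a Ccl5 or Gzmk UMI, a setting chosen after the data were seen that kept 6 and 12 aged cells, the log2 ratios in the meninges were −0.36 for S100a6, −0.17 for Ly6a, −0.26 for Ctla2a and −1.44 for Lgals1. The 6 aged meningeal cells held 0, 1, 0 and 1 UMIs of these genes, too few to read a direction from. In the choroid plexus the log2 ratios were 2.90 for S100a6, 2.37 for Ly6a, −0.25 for Ctla2a and 0.66 for Lgals1. The S100a6 value there rested on 1 cell, which held 15 of the 18 UMIs in the 12 cells. Without the cell that held most UMIs of the gene, the log2 ratio in the choroid plexus was 1.07 for S100a6 (3 UMIs), 1.92 for Ly6a and −0.31 for Lgals1. With at least 2 Ccr7 UMIs required, S100a6 did not meet the rule in the choroid plexus, and Lgals1 was at −0.25 there. In this setting 1 gene was higher in both tissues. Of the 206 S100a6 UMIs in the aged choroid plexus, all but 10, 7 and 2, each in 1 cell, lay in the 17 cells with exactly 1 Ccr7 UMI.

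Smc4 was at 311, 336, 86.7 and 95.3 CPM, 3.59-fold (1.62 to 9.90) lower in the aged meninges and 3.52-fold (1.93 to 7.05) lower in the aged choroid plexus. Rgcc was at 266, 147, 101 and 47.7 CPM and Lgals9 at 124, 134, 28.9 and 23.8 CPM. These low aged levels rest on few UMIs, and the ratio for Lgals9 was 4.28-fold lower (1.14 to 36.0) in the meninges. Tspan32 was at 81.9, 137, 14.4 and 31.8 CPM and Fam169b at 80.2, 106, 14.4 and 23.8 CPM, and for both the interval of the ratio in the meninges included 1. Crtc3 was at 55.2, 106, 0 and 7.94 CPM. It had no UMI among 69222 in the aged meninges, where the interval reached 53.3 CPM and overlapped the 38.0 to 77.5 CPM of the young meninges.

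**Figure D2:**
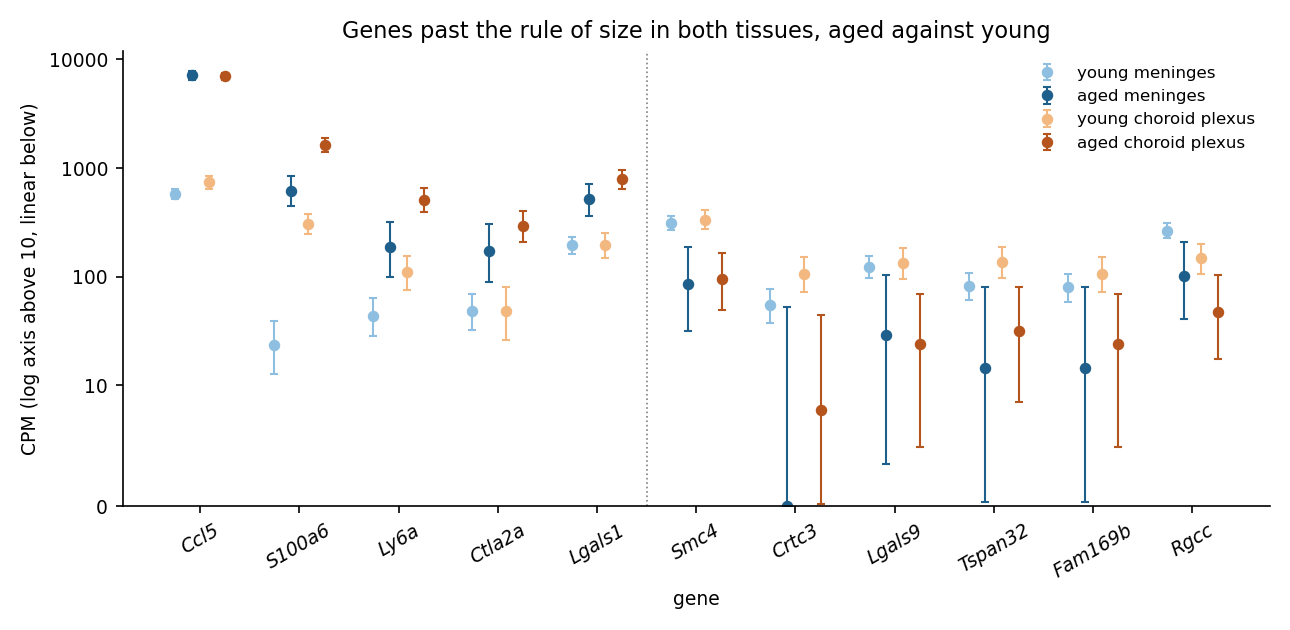
Levels of the 11 genes that were higher or lower in the aged cells of both tissues (CPM, axis logarithmic above 10 and linear below, 1 point per library, exact 95% Poisson intervals as bars). Ccl5 stands near 7000 CPM in both aged libraries and under 1000 CPM in both young libraries, and the lower genes lie near or under 100 CPM in the aged libraries.

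Most of the Ccl5 came from a subset of cells. In each library the cells either had 0 to 2 Ccl5 UMIs or at least 10, with few between. The first class held 138, 61, 7 and 15 cells, the second 9, 8, 9 and 13, and 3 cells of each young library and none of the aged ones lay between. Cells with at least 10 Ccl5 UMIs made up 6% (2.78 to 11.1%), 11.1% (4.92 to 20.7%), 56.2% (29.9 to 80.2%) and 46.4% (27.5 to 66.1%). The highest cell carried 85, 31, 114 and 116 UMIs, and the 3 highest cells held 55.9, 39.4, 57.5 and 38.4% of all Ccl5 UMIs of their library. The aged Ccl5 level thus rested on 9 and 13 cells. Of these, 4 and 2 had at least 2 Ccr7 UMIs and the others exactly 1, at the threshold of the rule. This division at 10 UMIs was chosen after the data were seen.

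**Figure D3:**
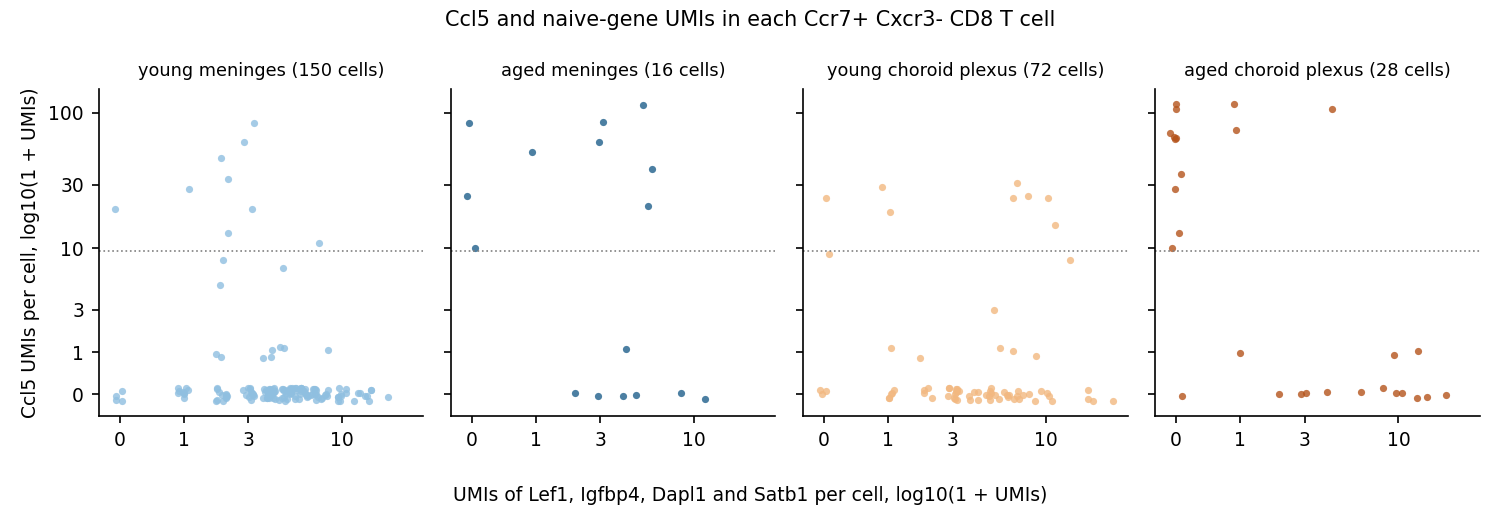
Ccl5 UMIs (vertical axis) against the summed UMIs of Lef1, Igfbp4, Dapl1 and Satb1 (horizontal axis), both logarithmic after adding 1, with 1 point per cell, shifted slightly at random so that points can be told apart, 1 panel per library and a dotted line just under 10 Ccl5 UMIs. Most young cells lie at 0, while 9 of 16 aged meningeal and 13 of 28 aged choroid plexus cells lie at 10 Ccl5 UMIs or more, up to 116.

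Igfbp4, which did not define these classes, was at 0 in the Ccl5-rich cells of 3 libraries, and Lef1 was lower in the Ccl5-rich cells to an extent that differed between libraries. In cells with 0 to 2 Ccl5 UMIs, Igfbp4 was at 435 CPM (380 to 494), 408 CPM (329 to 500), 470.4 CPM (263 to 776) and 979 CPM (749 to 1258). In cells with at least 10 it was at 344 CPM in the young choroid plexus and at 0 in the other libraries, with intervals up to 74.5 CPM in the young meninges, 98.8 CPM in the aged meninges and 58.0 CPM in the aged choroid plexus. Among the 13 aged choroid plexus cells rich in Ccl5, no cell had a UMI of Lef1 or Igfbp4 (a limit of 3 cells, or 23.1%), against 3 of 9 in the aged meninges and 6 of 9 and 6 of 8 in the young libraries. Lef1 in the Ccl5-low cells was at 496, 570.0, 282 and 466 CPM, with intervals that overlapped between the ages in both tissues. In the Ccl5-rich cells Lef1 was at 182, 279.7, 241 and 0 CPM, so in the aged meninges, with 9 UMIs in each class, the classes were close. Cells without any Ccl5 UMI had a UMI of Lef1 or Igfbp4 in 91.5, 89.3, 100% and 83.3%. The aged cells low in Ccl5 were only 7 and 15, and of both naïve markers only Igfbp4 in the choroid plexus, which was higher in the aged cells, had intervals apart from the young ones. Ctla2a was found at 15.0, 8.77, 0 and 0 CPM in the Ccl5-low cells and at 303, 258, 321 and 582 CPM in the Ccl5-rich ones. Nkg7, a cytotoxic granule protein, was at 451, 381, 502 and 514 CPM and at 808, 1097, 1366 and 1698 CPM in the 2 classes. The levels of Ctla2a and Nkg7 thus followed the Ccl5 class in all 4 libraries more than age.

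Age differences in the Ccl5-low cells rested on few UMIs. Smc4 in these cells was at 281 CPM (238 to 330), 368 CPM (294 to 456), 94.1 CPM (19.4 to 275) and 144 CPM (66.1 to 274). The intervals of the ages were apart in the choroid plexus and overlapped in the meninges, where the aged level was 3 UMIs. S100a6 there was at 16.9, 4.38, 0 and 449 CPM, and Ly6a at 46.8, 87.7, 62.7 and 546 CPM, so both were highest in the aged choroid plexus. The S100a6 level there was 28 UMIs in 5 of the 15 cells, with 15 UMIs in 1 cell, and was 224 CPM without that cell. The Ly6a level there was 34 UMIs in 9 cells. Lgals1 there was at 197, 118, 31.4 and 417 CPM. In Ccl5-rich cells S100a6 was at 101, 1549, 1152 and 2799 CPM and Lgals1 at 222, 538, 938 and 1148 CPM. The Ccl5-rich young cells were deeper, with a median of 5802 and 5896.5 UMIs against 3599 and 3304 in young cells without Ccl5, and Scrublet marked 2 of the 9 in the young meninges and none elsewhere. In the aged libraries the medians were 3837 and 4950 against 4780 and 3626, so depth did not stand the same way in both tissues. Whether doublets or free RNA had a part in the Ccl5-rich cells was not tested.

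**Figure D4:**
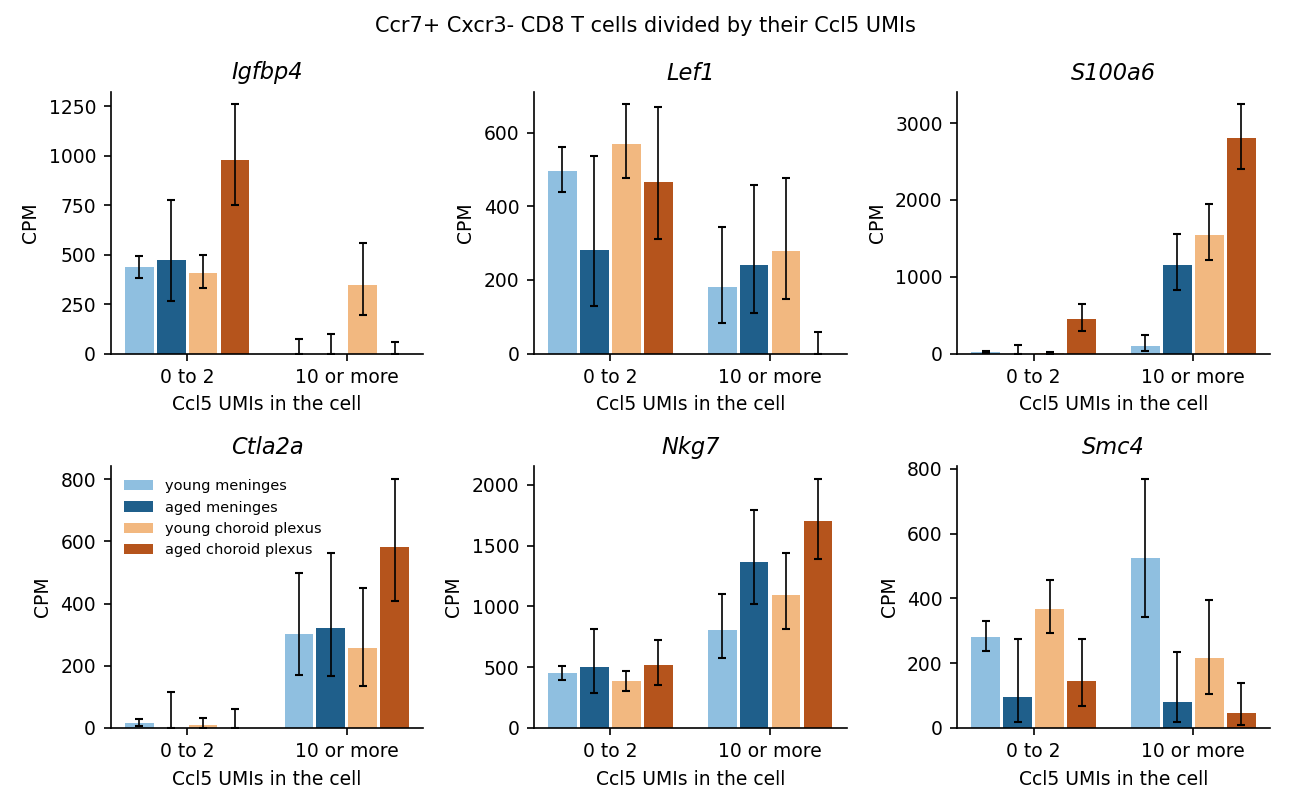
Levels (bars, CPM on a linear axis from 0, exact 95% Poisson intervals as lines) of Igfbp4, Lef1, S100a6, Ctla2a, Nkg7 and Smc4 in cells with 0 to 2 and with at least 10 Ccl5 UMIs, 1 bar per library. Igfbp4 lies at 0 in the Ccl5-rich cells of 3 libraries, and Ctla2a lies between 258 and 582 CPM in the Ccl5-rich cells of all 4.

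Gene lists placed the single genes in context. The median log2 ratio of aged to young over all genes considered was −0.16 in meninges and −0.05 in choroid plexus. All 20 genes of the naïve and quiescence list were considered, and 14 were lower in meninges and 17 in choroid plexus, with medians of −0.23 and −0.58. Over all genes considered 67.3 and 57.2% were lower, so the count in the meninges was near that of all genes. Of these the rule was met by Actn1 (α-actinin 1) in the meninges, and by Dapl1, Rflnb and Il6ra (a subunit of the interleukin-6 receptor) in the choroid plexus, all lower. Actn1 was at 140.4 CPM (112 to 174) in the young meninges and had no UMI in the aged meninges (up to 53.3 CPM), and was at 175 and 79.4 CPM in the young and aged choroid plexus. Lef1 itself was at 461, 504, 260.0 and 230.4 CPM, 1.77-fold (1.10 to 3.04) and 2.19-fold (1.46 to 3.38) lower in the aged cells. Its log2 ratios after adding 50 CPM were −0.72 and −0.98, short of the rule. Tcf7 was at 384, 333, 173 and 230.4 CPM, and Il7r, the interleukin-7 receptor that keeps naïve cells alive, at 891, 874, 896 and 826 CPM. Igfbp4 was at 391, 391, 217 and 485 CPM, lower in the aged meninges and with an interval of the ratio that included 1 in the choroid plexus, where its share of cells and its level stood in opposite directions. Il7r was thus close to its young level, whereas Lef1 and Tcf7 were lower in both aged libraries.

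Genes of homing and egress were close to all genes, with medians of −0.33 and −0.23 and 1 of 12 past the rule (Itgae, the integrin CD103, lower in the meninges). Klf2, the transcription factor that maintains the egress receptor S1pr1, was at 1170.1, 768, 795 and 477 CPM, and S1pr1 at 247, 226, 130.0 and 135 CPM. Both were lower in the aged library of each tissue by less than the rule required.

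The memory and effector list stood on the other side. Of its 24 genes 14 were considered in each tissue, and 11 were higher in the aged meninges and 14 in the aged choroid plexus, with medians of 0.46 and 0.98, where 32.7 and 42.8% of all genes considered were higher. In the meninges Ccl5 and S100a6 met the rule, and in the choroid plexus Ccl5, S100a6, Gzmk, Nkg7, Itgb1, S100a4 and Anxa2 (annexin A2). With at least 2 Ccr7 UMIs required, only 2 of the 22 genes higher in the aged choroid plexus still met the rule. Most of these memory genes thus did not meet it there in that setting. Nkg7 was at 481, 490.2, 968 and 1112 CPM. Gzmk was at 1.67, 13.7, 14.4 and 167 CPM, 12.2-fold (4.10 to 48.7) higher in the aged choroid plexus and carried by 1, 3, 1 and 7 cells. All 7 of these aged choroid plexus cells had exactly 1 Ccr7 UMI, so no Gzmk UMI was left there when 2 were required. In the meninges the Gzmk ratio could not be read, since it rested on 1 UMI at each age. S100a4 was at 11.7, 61.7, 0 and 286 CPM and Itgb1, the β1 integrin, at 45.1, 75.4, 43.3 and 230.4 CPM, so these memory genes were high only in the aged choroid plexus among the 4 libraries. Genes linked to virtual memory cells, which acquire memory traits without antigen, had medians of 0.94 and 0.43, but only 4 and 3 of 8 were considered and none met the rule. Ly6c2, a surface protein of memory CD8 T cells, was at 425, 374, 896 and 699 CPM, and Il2rb, the β chain shared by the receptors for interleukin 2 and interleukin 15, at 120.4, 109.7, 274 and 143 CPM.

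Other lists moved little with age. Interferon-stimulated genes had medians of 0.01 and −0.02 with Ifi206 alone past the rule, lower in the meninges. Immediate early genes had medians of 0.02 and −0.09, exhaustion genes −0.06 and −0.10, and genes of T-cell receptor signalling −0.05 and 0.02, with none past the rule. Cytokine receptors had medians of −0.01 and −0.10, with Il6ra past the rule. Of 22 genes of oxidative phosphorylation, 17 were higher in the aged meninges and 20 in the aged choroid plexus. This was a larger part than among all genes considered, given above with the memory list. The medians were 0.18 and 0.26, however, and none met the rule. MHC class I genes had medians of 0.08 and 0.21, and the Gimap family, GTPases of lymphocyte survival, 0.05 and −0.16 with Gimap4 higher in the aged meninges. None of these lists had more than 1 gene past the rule in a tissue.

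The cells were compared with CD8 T cells that had Cxcr3 and no Ccr7. By mean log2 ratio over the young libraries, Igfbp4 and Klf2 led the genes that were higher and Hist1h2ap those that were lower. In both young libraries 30 of 3265 genes were higher (0.919%) and 51 were lower (1.56%). The higher genes included Igfbp4, Klf2, Tsc22d3 (the glucocorticoid-induced leucine zipper), Lef1, Dapl1, Klf3, Tmem108, Rflnb and Rgs10 (a regulator of G protein signalling). Klf2 was at 1170.1, 768, 795 and 477 CPM against 245, 45.7, 146 and 77.1 CPM, so the difference was present in every library. The lower genes were led by the histone gene Hist1h2ap, at 55.2, 72.0, 14.4 and 23.8 CPM against 1637, 1599, 737 and 1290 CPM. Because histone genes of this cluster are near-identical, its reads could belong to another copy. Pclaf, a clamp-associated protein of dividing cells, was at 0, 0, 0 and 7.94 CPM against 418, 174, 63.5 and 175 CPM. The other leading genes that were lower were S100a6, Ccl5, S100a4, Itgb1, Xcl1 (lymphotactin), Gzmk, Lgals1 and Anxa2.

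Differences from the Cxcr3-positive cells were smaller in both aged libraries for Ccl5 and S100a6, but in the meninges not for every memory gene. The log2 ratio of Ccl5 was −3.37 and −3.13 in the young libraries and −0.77 and −0.15 in the aged ones. For S100a6 it was −3.94 and −2.87 in the young libraries and −1.65 and −0.93 in the aged ones. For S100a4 it was −2.84, −2.74, −2.90 and −0.69, and for Xcl1 −2.73, −2.66, −2.73 and −1.84. For Gzmk it was −3.55, −1.81, −3.39 and −0.87. These 3 genes thus stood about as far apart in the aged as in the young meninges. Their aged meningeal levels rested on 0 UMIs for S100a4, 2 for Xcl1 and 1 for Gzmk. The median over the 30 higher genes was 1.47, 1.48, 1.08 and 1.0, and over the 51 lower genes −1.59, −1.63, −1.32 and −0.86. Since the genes were chosen in the young libraries, a smaller value in the aged ones follows in part from the choice.

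Against CD4 T cells with Ccr7 and without Cxcr3, few genes differed. In both young libraries 9 of 3890 were higher in the CD8 T cells (0.231%) and 7 were lower (0.18%). Ly6c2 had the highest mean log2 ratio over the young libraries, with 3.13, 2.99, 3.59 and 1.83 in the 4 libraries, and was joined by Nkg7, Ccl5, Klrd1 (CD94), Epsti1, Dnajc15, Lcn4, Ctsw (cathepsin W) and AW112010. Cd40lg, the helper ligand of CD4 T cells, was lower, as were Ly6c1, Ly6a, Pdlim4, Ass1 (argininosuccinate synthase), Izumo1r (folate receptor 4) and Igfbp4. Igfbp4 was at 391, 391, 217 and 485 CPM in the CD8 and at 857, 958, 1045 and 320.2 CPM in the CD4 T cells, with overlapping intervals in the aged choroid plexus (371 to 622 and 183 to 520.0 CPM). The log2 ratio of Ass1 was 0.42 there, on 19 and 5 UMIs, and that of AW112010 was −0.52 in the aged meninges, both likewise with overlapping intervals. The order of these 3 genes in those libraries was not resolved at this depth. Ly6c1 and Ly6c2 are near-identical neighbours, and the opposite order of the 2 genes is uncertain where reads could be split between them. The medians were 1.5, 1.67, 1.73 and 1.63 over the 9 higher genes and −1.30, −1.39, −1.59 and −0.50 over the 7 lower ones.

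Meninges and choroid plexus differed in immediate early genes, in a comparison chosen after the data were seen. At both ages 9 of 1448 genes were higher in the meninges than in the choroid plexus (0.622%) and 2 were lower (0.138%). The higher genes included Junb, Jun and Fos, which form the AP-1 transcription factor, Ier2, the phosphatase Dusp1, the NF-κB inhibitor Tnfaip3 and Ppp1r15a, a regulator of the stress response. Junb was at 985, 85.7, 997 and 214 CPM, 11.5-fold (7.70 to 17.9) higher in the young meninges and 4.65-fold (2.94 to 7.55) higher in the aged meninges. Ier2 was at 557, 65.1, 404 and 39.7 CPM, and Dusp1 at 129, 17.1, 274 and 15.9 CPM. Fos was at 125, 6.86, 144 and 7.94 CPM, and Tnfaip3 at 167, 3.43, 188 and 31.8 CPM. Jun was at 187 and 27.4 CPM in the young libraries, at 188 CPM (100 to 321) in the aged meninges and at 0 in the aged choroid plexus, with an interval up to 29.3 CPM. Both meninges libraries were thus above both choroid plexus libraries for each of these genes. All 15 genes of the immediate early list that were considered in the young cells and all 13 in the aged cells were higher in the meninges, with medians of 0.96 and 1.49 beside 0.04 and −0.21 over all genes. The lower genes were S100a6 and Ccnb1ip1.

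Other T cells of these libraries showed the tissue difference in part. For Junb the log2 ratio of meninges to choroid plexus was 2.93 and 1.98 at the 2 ages here, 2.88 and 2.90 in Cxcr3-positive CD8 T cells without Ccr7, and 3.48 and 2.53 in CD4 T cells with Ccr7 and without Cxcr3. For Dusp1 it was 1.41 and 2.30 here and 1.97 and 2.57 in the Cxcr3-positive cells, for Fos 1.62 and 1.75 here and 1.76 and 2.28 there, and for Tnfaip3 2.02 and 1.54 here and 1.06 and 1.67 there. For Jun it was 1.62 and 2.25 here and 0.28 and 0.74 there, for Ier2 2.40 and 2.34 here and 0.62 and 1.35 there, and for Ppp1r15a 1.41 and 1.25 here and 1.22 and 0.53 there. In the CD4 T cells these 7 genes stood at 1 or more at both ages except for Jun, at 2.0 and 0.71. For S100a6 it was −2.27 and −1.33 here −1.20 and −0.62 in the Cxcr3-positive cells and 0.59 and −0.21 in the CD4 T cells. Ccnb1ip1 was at −1.03 and −1.25 here, at −1.02 and 0.37 in the Cxcr3-positive cells and at −0.19 and 0.36 in the CD4 T cells. These differences between cell classes were not tested. Each tissue at each age was 1 library, so tissue, dissociation and library cannot be told apart.

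**Figure D5:**
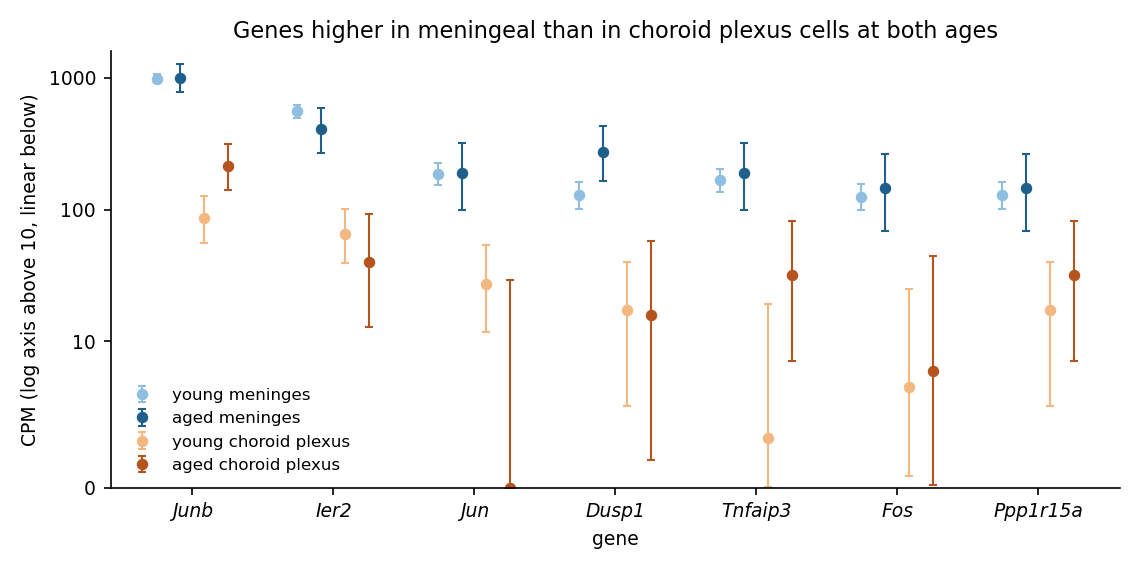
Levels of 7 genes that were higher in the meninges than in the choroid plexus at both ages (CPM, axis logarithmic above 10 and linear below, 1 point per library, exact 95% Poisson intervals as bars). Junb lies at 985 and 997 CPM in the meninges libraries and at 85.7 and 214 CPM in the choroid plexus libraries.

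Markers of other cell types were looked for in the same cells. Of 10 B cell markers, Ighm (the IgM heavy chain) was the most abundant, with 107 of 125, 54 of 58, 4 of 4 and 9 of 20 UMIs, and the defining markers Cd79a and Ms4a1 were at 0 in all 4 libraries. Cd79b, the partner chain of Cd79a, had 15, 3, 0 and 4 UMIs, in 15, 3, 0 and 3 cells, and Cd74 had 1, 0, 0 and 7, the 7 in 1 cell. A UMI of the list was found in 56.0, 55.6, 18.8 and 32.1% of the cells. Markers of NK cells were found in 4.67, 4.17, 12.5 and 14.3%, with Ncr1 at 0 in 3 libraries, and of γδ T cells in 2, 0, 6.25 and 14.3%, the last from the single gene Tcrg-C2. The aged shares were 2 of 16 and 4 of 28 cells for NK and 1 of 16 and 4 of 28 for γδ markers, and their intervals overlapped those of the young library of the same tissue in all 4 cases. Red cell globin UMIs were found in 6, 0, 25 and 3.57%. Macrophage markers were found in 1.33, 1.39, 6.25 and 0%, choroid plexus epithelium markers in 0, 1.39, 0 and 3.57%, and no fibroblast marker was found. Foxp3, the factor of regulatory T cells, had no UMI in any of the 266 cells, which allows up to 1.13% of cells with a UMI and sets no limit on cells that transcribe it. Cells that carried a B, NK or γδ T cell marker were left out in a setting chosen after the data were seen, which kept 61, 31, 10 and 14 cells. Ccl5 was then higher in the aged cells by a log2 ratio of 4.16 in meninges and 4.35 in choroid plexus, against 3.51 and 3.15 in all cells, and the log2 ratios of Smc4 were −1.57 and −1.64.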

How the data were processed

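Droplet libraries of sorted T cells from 4 groups were used, with 1 library each. The deposited matrices hold UMI counts that were not normalized, which the authors made with Cell Ranger from 5′ libraries. The file headers name version 3.1.0, while the submitters' processing notes list version 5.1.0, STAR and mm10. The libraries held 3737140, 2295950, 4262917 and 3957717 UMIs in 1111, 718, 1695 and 1277 called cells, of which 1035, 631, 1436 and 1106 passed the limits on genes and mitochondrial UMIs. CD8 T cells numbered 260, 167, 281 and 476. Cells, gene lists and comparisons were chosen with earlier results of these data known.

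UMIs were summed over cells, scaled to CPM of all genes, and compared as log2 ratios after adding 50 CPM. A gene was called by the rule of size given with the results, since no test fits 1 library per group. Genes considered had at least 10 UMIs in the higher library, and the genes of the gates were never called. Named genes were those of the rule and the lists, and up to 10 per direction by mean log2 ratio, with ribosomal protein, mitochondrial, immunoglobulin and T-cell receptor genes and unnamed gene models left out. Some genes are not reported here. Cells were thinned to 1000 UMIs with seed 0. Positions came from GENCODE vM21. Python 3.11.15, numpy 2.4.6, pandas 2.3.3, scipy 1.17.1, scanpy 1.11.5 (Scrublet) and matplotlib 3.10.9 were used. The rule was also tried on UMIs simulated from the summed levels of the young cells with known changes. Genes whose UMIs lie mostly in a few cells, such as Ccl5, were not simulated, so the trial does not cover them.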

Additional observations from a re-analysis of the deposited data

How the results depend on the processing

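Each comparison was of 1 library with 1 library of few aged cells, so that counts of genes moved with every threshold, and the depth of the aged cells (69222 and 125894 UMIs) limits what could be seen. No paired analysis was possible because each group had 1 library, numbered 1 in accession order only, which leaves nothing to estimate a block from. Whether the tissues of an age came from the same mice was not settled here. Leaving out a replicate was not possible for the same reason. Of 312 values of the 11 genes named for age, 266 were counted as the same, 34 moved and 12 changed direction. A value counted as the same when it lay within the outermost log2 ratios allowed by the Poisson intervals of the young and aged levels. This range is wide where UMIs are few, so a value counted as the same need not meet the rule. With 100 CPM added, only 1 of the 6 genes lower in both tissues still met it. The cause of the changes was not tested unless given.

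With the cells that had a Ccl5, Gzmk or Nkg7 UMI left out, which kept 1 aged meningeal and 5 aged choroid plexus cells, the log2 ratio of aged to young in the meninges was −0.98 for S100a6, −0.98 for Ly6a and −0.22 for Ctla2a, and −0.34 for Ctla2a in the choroid plexus. With Ccl5 or Gzmk only, a setting chosen after seeing the data that kept 6 and 12 aged cells, it was −0.36 for S100a6, −0.17 for Ly6a, −0.26 for Ctla2a and −1.44 for Lgals1 in the meninges (0, 1, 0 and 1 UMIs in the aged cells) and −0.25 for Ctla2a in the choroid plexus, with S100a6 at 2.90 in the choroid plexus. With the cell highest in the gene left out as well, also chosen after seeing the data, S100a6 was at 1.07, Ctla2a at −0.25 and Lgals1 at −0.31 in the choroid plexus. With at least 2 Ccr7 UMIs Lgals1 was at −0.25 in the choroid plexus, and S100a6 did not meet the rule there.

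Counts of genes for age are given as higher and lower in the meninges, higher and lower in the choroid plexus, and higher and lower in both (15, 120, 22, 36, 5 and 6 as reported). A pseudocount of 10 CPM gave 30, 1331, 92, 312, 10 and 136. A pseudocount of 100 CPM gave 8 higher and 9 lower in the meninges, 8 higher and 1 lower in the choroid plexus and 1 lower in both. A UMI minimum of 20 gave 7 higher in meninges and 11 in choroid plexus, and no minimum 37 higher in the meninges and 8 in both. CPM without ribosomal, mitochondrial and receptor genes gave 30, 450, 42, 134, 8 and 23. Thinned cells gave 8 higher and 448 lower in the meninges, 77 lower in the choroid plexus and 27 lower in both. Of the 6 genes lower in both, 2 were among these 27, 1 met the rule at 100 CPM, 2 with at least 2 Ccr7 UMIs and 2 without Ccl5 or Gzmk. At least 2 Ccr7 UMIs gave 352 lower in the meninges, 14 higher and 203 lower in the choroid plexus, and 1 higher and 24 lower in both. Of the 22 genes reported as higher in the choroid plexus, only 2 were among these 14. Without Ccl5, Gzmk or Nkg7 the counts were 8, 942, 8, 115, 1 and 104, and without Ccl5 or Gzmk 2, 520, 9, 157, 0 and 25. Cells with Lef1, Igfbp4, Dapl1 or Satb1 gave 11 and 65 in the choroid plexus, and without cells with markers of other cell types 253, 90 and 14 were lower in the meninges, the choroid plexus and both, both chosen after seeing the data.

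For the classes, a pseudocount of 10 CPM gave 78 genes higher and 106 lower than in Cxcr3-positive cells and 27 higher and 23 lower than in CD4 T cells, and thinned cells gave 20 lower than in Cxcr3-positive cells and 5 higher than in CD4 T cells. For the tissues, in settings chosen after seeing the data, 10 CPM gave 4 genes lower in the meninges, thinned cells 2 higher and 0 lower, and cells without Ccl5 or Gzmk 4 higher and 0 lower.

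The share of CD8 T cells was 31.2, 17.9, 2.33 and 3.23% in thinned cells and 39.2, 22.2, 2.85 and 2.31% with at least 2 Ccr7 UMIs. Without the condition on Cxcr3 it was 65.0% in the young meninges and 9.45% in the aged choroid plexus. A gate by Lef1, Igfbp4 or Dapl1 without Ccl5, Gzmk or Nkg7 gave 20, 22.8, 1.07 and 2.10%. In each of these settings both aged shares stayed below both young ones. The share of thinned cells with a naïve sign was 65.3, 63.9 and 50% in the first 3 libraries, and with 1 of the 8 memory genes 44.0 and 43.1% in the young ones. With the 6 memory genes the share was 25.3, 34.7, 68.8 and 71.4% at full depth and 12.7, 23.6, 62.5 and 64.3% in thinned cells. For Trav in place of Trbv genes the effective number was 10.3, 9.49, 6.4 and 5.56, and 9.45, 8.43, 5.37 and 5.82 in the other CD8 T cells. The described cells with a Trav UMI were 87, 44, 8 and 10. In the young meninges the other CD8 T cells were only 65, so that library gives no comparison. In each library that was drawn down, the value lay inside the range of the draws, so no order is given.

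Thinning moved the percent of list genes higher in the aged cells to 100% for the memory list in the meninges, 100% for virtual memory in the meninges, 0% for exhaustion in both tissues, 22.2% for cytokine receptors in the meninges and 0% for Gimap genes in the choroid plexus. Leaving out Scrublet calls, the 5% of cells with the highest doublet score, or cells without Cd8b1, and a mitochondrial limit of 10% in place of 5%, moved no count they were tried on by more than 1.5 times and no share outside its interval. The genes behind a count could still change. Without the 5% of cells with the highest doublet score, 11 of the 22 genes higher in the aged choroid plexus were still called. Of the genes called in both tissues, 5 of 5 higher and 4 of 6 lower ones were kept.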

Other observations

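The T-cell receptor β V genes in use were spread over many families at both ages. Among cells with a Trbv UMI (147, 66, 15 and 26, libraries as listed above) the effective number of Trbv genes, the inverse Simpson number, was 16.8, 16.1, 9.78 and 12.1. Other CD8 T cells, drawn to the same number of cells where more were at hand, gave 14.8, 13.3, 8.26 and 10.7. In the young meninges the other CD8 T cells were only 106, so that library gives no comparison. In the 3 libraries that were drawn down, the draws ranged from 11.8 to 14.9, from 5.49 to 10.7 and from 8.05 to 13.5, so the value lay inside that range in both aged libraries and above it in the young choroid plexus. The most used gene was Trbv3 in 9.52% of the young meningeal cells, Trbv16 in 10.6% of the young choroid plexus cells, Trbv12-1 in 20% of the aged meningeal cells (3 of 15) and Trbv19 in 15.4% of the aged choroid plexus cells (4 of 26). The 2 aged numbers cannot be set against the young ones, since fewer cells give a lower number.

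Ighm, the IgM heavy chain gene, was carried by 48.0, 52.8, 18.8 and 21.4% of the Ccr7-positive Cxcr3-negative CD8 T cells and by 51.0, 42.9, 32.0 and 31.2% of the CD4 T cells selected in the same way. After thinning the shares in the CD8 T cells were 15.3, 23.6, 12.5 and 3.57%.

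Over all CD8 T cells, which include the cells described here, 11 genes were higher and 11 lower with age in both tissues. Their medians in all CD8 T cells were 1.89 (meninges) and 1.35 (choroid plexus) on the log2 scale for the higher and −1.39 and −1.37 for the lower genes. In the Ccr7-positive Cxcr3-negative cells the medians over the same genes were 0.81 and 1.18 for the higher and −0.53 and −0.80 for the lower genes. Only 6 of the 11 higher genes had enough UMIs in these cells to be considered, and the added 50 CPM makes the ratios of the others smaller. Since the genes were chosen over all CD8 T cells, smaller medians in a part of them follow in part from the choice. Of the 6 higher and 11 lower genes that could be considered in these cells, 4 and 1 met the same rule.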
